A study of Homo sapiens with 9 samples.

Results

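The clustered histone genes were taken as every gene whose symbol starts with HIST1H, HIST2H, HIST3H or HIST4H, which gave 71 of the 36601 genes measured. They comprised 6 linker histone H1 genes, 17 H2A, 18 H2B, 15 H3 and 15 H4 genes. Their transcripts were followed in human extra-embryoids (hEEs), three-dimensional aggregates of wild-type ESI017 human pluripotent stem cells, an established embryonic stem cell line grown beforehand in expanded potential medium and given no treatment according to the labels, that sort themselves into an inner epiblast-like and an outer hypoblast-like compartment. A single library of single-cell RNA sequencing was made at D4 and another at D6 (1 library per day), from aggregates with a visible inner and outer compartment, which the study pooled across wells and cultures of different clones and passages of this 1 genetic background. Cells were placed in an embryonic gate (at least 5 UMIs of *POU5F1*, at least 1 of *SOX2* and at most 2 of *FN1*) or in a hypoblast gate (at least 3 UMIs of *FN1*, 0 of *SOX2* and at most 5 of *POU5F1*), where a UMI counts 1 captured RNA molecule. With 1 library per day and cells that are not replicates of a condition, no test was possible; intervals given in brackets are 95% intervals that cover counting error only, and day and library cannot be told apart.

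Histones H2A, H2B, H3 and H4 form the protein core around which DNA is wrapped in a nucleosome, and H1 binds the linker DNA between nucleosomes. The clustered genes are the replication-dependent ones: they are transcribed mainly in S phase, when newly copied DNA needs new histones. Their mRNAs typically end in a short stem-loop bound by the protein SLBP in place of a poly(A) tail, so a method that primes on poly(A), as used here, captures them only in part, from longer polyadenylated forms or from A-rich stretches within the transcript.

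The 3′ stem-loop was present in each of the 65 members for which a GENCODE transcript was found, and in 63 of them at least 1 annotated transcript stopped within 10 bases of it. The stem-loop of the member with the most UMIs of each type is shown because it is the feature that sets these mRNAs apart. Capitals mark the 16-base stem-loop (GG NNN TT N T N A NNN CC), written 5′ to 3′ as DNA with 5 bases on either side.
*HIST1H4C*: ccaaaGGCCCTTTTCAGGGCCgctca
*HIST1H1D*: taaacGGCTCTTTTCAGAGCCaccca
*HIST2H2AC*: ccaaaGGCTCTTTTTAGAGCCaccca
*HIST1H3D*: ccaaaGGCTCTTTTCAGAGCCaacca
*HIST1H2BH*: ccaaaGGCTCTTTTCAGAGCCactta
The form seen in *HIST1H1D* was the commonest, in 38 members (4 H1, 11 H2A, 11 H2B and 12 H3 genes) but in 0 H4 genes. The form of *HIST1H4C* was found in 8 members, all of them H4 genes, and all 13 H4 genes with a transcript shared its stem of GGCCC and GGGCC, whereas the stem of *HIST1H1D* was GGCTC and GAGCC.

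A-rich stretches differed among members. They were counted in a single annotated transcript per member, the one that ended nearest to the stem-loop, so longer annotated forms were not searched. The 15-base window richest in A held 13 A in *HIST1H4C*, the highest count of the 65 members, and it lay 6 bases before the stem-loop. The corresponding windows of *HIST1H1D* and *HIST1H1E* held 11 A, and those of *HIST1H1B*, *HIST1H1C* and *HIST2H2AC* held 10. These windows lay 465, 41, 33, 198 and 5 bases before the stem-loop, in that order of genes. They are printed with 5 bases on each side, with the A bases of the window in capitals, for the 2 most abundant members, for *HIST2H2AC*, the most abundant H2A gene, and for *HIST3H2A*, whose window held 8.
*HIST1H4C*: aaaaaAcAAAAAcAAAAAAAcccaa
*HIST1H1D*: gatgtAgAAAAAAAcAAcAgccgta
*HIST2H2AC*: tgcagAcAAAcAAAccAAgAccaaa
*HIST3H2A*: gcgcgAcAAcAAgAAgAcgcgcatc
Of the 12 members with 10 or more A in such a window, 7 reached 10 UMIs in 1000000 (CPM) in at least 1 group, against 10 of 29 members with 8 or 9 A and 2 of 24 with 7 or fewer. The median UMI totals of these sets were 7914, 1008 and 59. Across the 63 members with a transcript and a UMI, the Spearman correlation of the A count with the UMI total was 0.42, a description over genes that share libraries and, within a type, much of their sequence. The members with 10 or more A also included 5 with at most 631 UMIs, among them *HIST1H1T*, *HIST1H2AA* and *HIST1H2BA*, which are known as histone genes of the testis. The H1 transcripts, 724 to 797 bases long, all held 10 or 11 A, so the A count was not separate from histone type. The part of A-rich stretches in the counts was not tested.

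**Figure D1:**
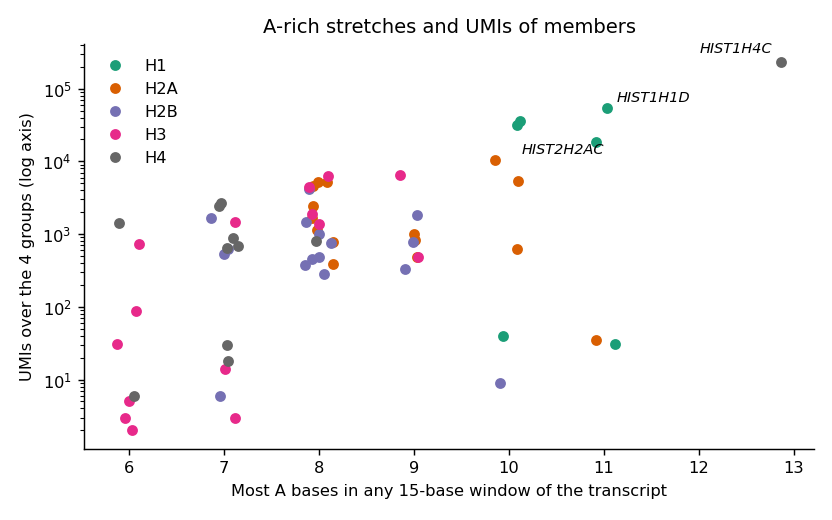
UMIs of each member summed over both gates and both days (log axis) against the highest number of A bases in any 15-base window of its annotated transcript that ended nearest to the stem-loop. The 63 members with a transcript and a UMI are shown, coloured by histone type and shifted sideways at random by less than 1 base for display. *HIST1H4C*, with 13 A, has the most UMIs, and members with 7 or fewer A mostly lie low.

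A total of 16398 of 19248 kept cells fell in a gate: 3716 embryonic and 4061 hypoblast cells at D4, and 5054 and 3567 at D6. Embryonic cells were deeper, with median totals of 15157.5 UMIs at D4 and 14225.5 at D6 against 11012 and 10902 in the hypoblast gate, and 40 cell barcodes occurred in both libraries. Of the 9 embryonic markers, 8 were 2-fold or more lower in hypoblast cells on each day and *TDGF1* was higher (186 against 228 CPM at D4, 164 against 221 at D6). Of the 11 hypoblast markers, 10 (D4) and 11 (D6) were 2-fold or more higher there. These counts include *POU5F1*, *SOX2* and *FN1*, whose direction was fixed by the gates. Of all genes, 16.1% (D4) and 21.4% (D6) were 2-fold or more lower in hypoblast cells, and 15.1% and 14.7% higher. Among markers that the gates did not use, *DNMT3B* stood at 339 and 349 CPM in embryonic cells (D4, D6) and at 55.8 and 59.8 in hypoblast cells, and *GATA6* at 1.7 and 2.91 against 121 and 297. Of 9 trophoblast markers, *CGB5* and *VGLL1* had 0 UMIs in all groups and *GATA3* made up nearly all of the list in hypoblast cells (223 at D4 and 222 at D6), and *CGA* and *GCM1* were at or near 0. Only 3 of the 9 had enough UMIs to be compared. *GATA3* was 2-fold or more higher in hypoblast cells on both days. *TFAP2C* was 2-fold or more lower there on both days, and *KRT7* at D4. *KRT7* was 2-fold or more higher at D6 than at D4 in hypoblast cells. Markers of streak and mesoderm were mostly higher in the hypoblast gate, by 2-fold or more for 4 of 6 at D4 and 5 of 6 at D6. *WNT3A* went the other way and was 2-fold or more lower there on both days. The sums were 3.75 (embryonic) and 33.6 (hypoblast) CPM at D4 and 7.19 and 105 at D6, most of it *MIXL1* (27.6 and 84.0 in hypoblast cells). Amnion markers summed to 17.7 and 88.5 at D4 and 41.8 and 116 at D6. Of these 6, 4 were 2-fold or more higher in hypoblast cells at D4 and 1, *TFAP2A*, lower. At D6, 2 were higher and 3 lower, with *MSX2* the most abundant there. The part of these markers in the histone values was not tested. *APOA1*, an apolipoprotein gene of the hypoblast, stood at 20.8 CPM in embryonic cells of D4 and 89.6 at D6 against 1621 and 11926 in hypoblast cells. Whether its UMIs in embryonic cells were stray RNA, doublets or expression by these cells was not tested.

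Clustered histone transcripts were higher in embryonic than in hypoblast cells on both days, and the gap was wider at D6. Their sum was 2092 CPM [2080, 2104] in embryonic cells and 1748 [1736, 1759] in hypoblast cells at D4, and 2657 [2646, 2669] and 1412 [1401, 1424] at D6. The embryonic sum was thus higher at D6 than at D4, and the hypoblast sum was lower. On the log2 scale hypoblast over embryonic cells differed by −0.26 [−0.27, −0.25] at D4 and by −0.91 [−0.92, −0.90] at D6. D6 over D4 was 0.34 [0.33, 0.36] in the embryonic gate and −0.31 [−0.32, −0.29] in the hypoblast gate. As sums over cells of a gate, these values do not separate fewer cells with histone transcripts from fewer transcripts per cell; the spread over cells is given further on.

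Members were detected very unequally. The 5 most abundant held between 78.3% and 81.8% of all histone UMIs in each group, and *HIST1H4C* alone held 52.7% and 47.3% in embryonic and 50.5% and 50.1% in hypoblast cells (D4, D6). A total of 19 members reached 10 CPM in at least 1 group (4 H1, 6 H2A, 2 H2B, 4 H3 and 3 H4 genes), 33 peaked between 1 and 10, and 19 stayed under 1. Only *HIST1H4G* and *HIST1H4K* had 0 UMIs in all 4 groups. Since a UMI counts 1 molecule read at its 3′ end, levels were not divided by transcript length, and their order reflects capture as well as abundance.

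By type, H4 and H1 made up most of the sum. H4 stood at 1153 CPM in embryonic and 914 in hypoblast cells at D4, and at 1317 and 732 at D6. H1 stood at 536 and 501 at D4 and at 903 and 448 at D6. The remaining types were lower, with H2A between 122 and 221, H3 between 70.0 and 127, and H2B between 41.1 and 98.1. In every type the embryonic gate was above the hypoblast gate on both days, with the smallest gap for H1 at D4 (−0.10 [−0.12, −0.07]) and the widest for H2B at D6 (−1.11 [−1.19, −1.04]), both as log2 of hypoblast over embryonic cells.

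**Figure D2:**
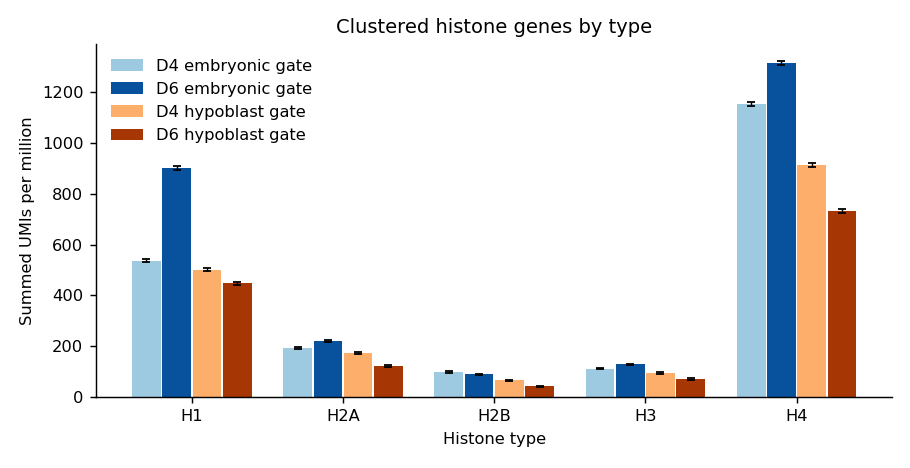
Summed CPM of the clustered histone genes by histone type (x axis) in the embryonic and hypoblast gates at D4 and D6, with 95% Poisson intervals as error bars. H1 in D6 embryonic cells, at 903, stands above the other 3 groups (448 to 536), whereas H2B is lower at D6 in both gates.

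The change from D4 to D6 in embryonic cells was uneven among types. As log2 of D6 over D4, H1 rose by 0.75 [0.73, 0.77], whereas H2A, H3 and H4 were at 0.19 [0.16, 0.23], 0.20 [0.15, 0.24] and 0.19 [0.18, 0.21], and H2B was at −0.14 [−0.19, −0.09]. The share of H1 in histone UMIs went from 25.6% [25.4, 25.9] to 34.0% in embryonic cells and from 28.7% to 31.7% in hypoblast cells. In the hypoblast gate all 5 types were lower at D6, from −0.16 [−0.19, −0.14] for H1 to −0.66 [−0.74, −0.57] for H2B.

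Among H1 genes, 4 accounted for almost all UMIs of the type. *HIST1H1D* (encoding linker histone H1.3; chr6:26234212-26234987, minus strand, GRCh38) stood at 206 CPM in embryonic and 149 in hypoblast cells at D4, and at 396 and 148 at D6. *HIST1H1B* (H1.5; chr6:27866792-27867588, minus strand) had 124 and 136 at D4 and 235 and 112 at D6. For both genes the D6 embryonic cells were the highest of the 4 groups, and *HIST1H1B* was the lower of the pair in each group. *HIST1H1C* (H1.2; chr6:26055740-26056470, minus strand) was flatter, at 133 and 146 at D4 and 160 and 120 at D6. *HIST1H1E* (H1.4; chr6:26156329-26157115, plus strand) had 71.8 and 70.0 at D4 and 111 and 68.2 at D6. As log2 of D6 over D4 in embryonic cells, *HIST1H1D* and *HIST1H1B* were at 0.94 [0.91, 0.97] and 0.92 [0.88, 0.96], above *HIST1H1E* at 0.63 [0.57, 0.68] and *HIST1H1C* at 0.27 [0.23, 0.32]. In hypoblast cells the same ratio held 0 within its interval for *HIST1H1D* (−0.01 [−0.06, 0.04]) and *HIST1H1E* (−0.04 [−0.11, 0.03]) and lay below 0 for *HIST1H1B* and *HIST1H1C*, at −0.28 and −0.29. The other members of the type were near 0. *HIST1H1A* had 31 UMIs in all and *HIST1H1T*, a testis form, 40. All 31 UMIs of *HIST1H1A* but 1 came from embryonic cells. At D6 it had 0 UMIs in hypoblast cells, which made it 2.98-fold lower there with 3 UMIs taken as the floor of that group. The counting interval of this log2 ratio reached up to −1.11, a smaller difference than the floor gives.

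The promoters of these 4 H1 genes share an element known as the H1 box. They are shown because the 4 genes are next to each other in level and were each higher in D6 than in D4 embryonic cells. Capitals mark the H1 box AAACACA nearest to the start site, in RefSeq GRCh38.p14 sequence of the gene's own strand with 30 bases on each side.
*HIST1H1B* (chr6:27867669-27867735, minus strand): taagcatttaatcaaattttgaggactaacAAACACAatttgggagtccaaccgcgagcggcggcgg
*HIST1H1C* (chr6:26056553-26056619, minus strand): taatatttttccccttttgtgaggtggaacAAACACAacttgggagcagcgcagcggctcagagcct
*HIST1H1D* (chr6:26235070-26235136, minus strand): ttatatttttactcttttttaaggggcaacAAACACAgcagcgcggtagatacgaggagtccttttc
*HIST1H1E* (chr6:26156182-26156248, plus strand): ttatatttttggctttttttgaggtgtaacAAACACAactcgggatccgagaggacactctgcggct
The box began 117 or 119 bases before the annotated start in each. Searched on both strands of the 300 bases from 250 before to 50 after the start, AAACACA was found in 6 of 6 H1 promoters, in 3 of the 60 other member promoters in the table (*HIST2H2AC*, *HIST2H3A* and *HIST2H3C*) and in 5.64% of all 35116 promoters. *HIST1H1A* and *HIST1H1T*, near 0 here, carry it too. CCAAT, the motif bound by NF-Y, was in all promoters of H1, H2A, H2B and H3 genes in the table but in 3 of 13 of H4 genes, against 34.6% of all promoters. The octamer ATTTGCAT, bound by OCT factors and known from H2B promoters, was in 14 of 18 H2B and 11 of 16 H2A promoters, many of which are shared by a divergent pair, in 0 H1 and 0 H4 promoters, and in 1.77% of all promoters. TATAAA was in 44 of 66 member promoters (11.5% of all), and TTTNGCGC, an E2F-type site, in 12 of 66 (1.79% of all). A match is a description of the sequence and not evidence of binding.

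*HIST1H4C*, an H4 gene (chr6:26103933-26104337), was the most abundant member throughout. It stood at 1103 CPM [1094, 1111] in embryonic and 882 [873, 890] in hypoblast cells at D4, and at 1258 [1250, 1266] and 707 [699, 715] at D6. Its log2 ratios of hypoblast over embryonic cells were −0.32 at D4 and −0.83 at D6. As log2 of D6 over D4 in embryonic cells it was at 0.19. Without *HIST1H4C* the remaining members gave −0.19 and −0.99 for the same ratios, and 0.50 for D6 over D4 in embryonic cells. The next H4 genes were lower by far, with *HIST1H4H* at 13.2 and 6.02 (D4) and 16.1 and 3.95 (D6), and *HIST1H4E* at 11.9 and 11.6 (D4) and 13.2 and 9.84 (D6), each as embryonic and hypoblast level. *HIST1H4H* had the lowest log2 ratio of hypoblast over embryonic cells at D6 among the 19 members, −2.03 [−2.27, −1.79], and *HIST1H4E* the second smallest gap, −0.43 [−0.60, −0.26]. *HIST1H4H* reached 10 CPM in embryonic cells only, so its place among the 19 favoured that direction.

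The H2A genes did not all share 1 pattern. *HIST2H2AC* (chr1:149886918-149887411, plus strand) stood at 38.9 CPM in embryonic and 48.5 in hypoblast cells at D4, and at 58.5 and 38.0 at D6. It was thus higher in hypoblast cells at D4 (log2 0.32 [0.23, 0.40]) and lower at D6 (−0.62 [−0.71, −0.54]). *HIST1H2AH* showed the same turn, from 0.27 [0.15, 0.38] to −0.72 [−0.84, −0.59]. *HIST1H2AC* did not, at 29.6 and 16.01 at D4 and 29.7 and 12.2 at D6, so that hypoblast cells were lower on both days. *HIST1H2AG* stood at 25.7 and 23.9 at D4 and at 25.3 and 14.8 at D6. Its log2 ratio held 0 within its interval at D4 (−0.11 [−0.22, 0.01]) and was −0.77 [−0.90, −0.64] at D6. *HIST1H2AL* was among the members most tilted to the embryonic gate, at 13.1 and 5.96 at D4 and 16.4 and 4.19 at D6 (log2 −1.13 and −1.97). *HIST3H2A* (chr1:228457364-228457873, minus strand), from the small cluster on the long arm of chromosome 1, was lower at D6 in both gates, at 26.7 and 21.4 in embryonic cells and 20.5 and 12.2 in hypoblast cells (D4, D6).

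Among H3 genes, *HIST1H3D* stood at 23.5 CPM in embryonic and 27.8 in hypoblast cells at D4, and at 37.7 and 25.2 at D6, with log2 ratios of hypoblast over embryonic cells of 0.24 and −0.58. The annotated span of *HIST1H3D* contains that of the H2A gene *HIST1H2AD* on the same strand, so reads of the pair may not be told apart. *HIST1H3B* had 31.1 and 23.9 at D4 and 35.6 and 16.2 at D6, *HIST1H3G* 23.4 and 20.2 and then 20.0 and 14.005, and *HIST1H3F* 10.9 and 6.54 and then 10.4 and 4.19. Unlike *HIST1H3D*, these 3 genes were lower in hypoblast cells on both days, and *HIST1H3G* was lower at D6 in both gates.

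H2B genes were the lowest type, and 2 of 18 reached 10 CPM. *HIST1H2BH* stood at 25.7 in embryonic and 15.7 in hypoblast cells at D4 and at 20.4 and 9.38 at D6. *HIST1H2BC* stood at 8.56 and 7.53 at D4 and 10.1 and 4.72 at D6. The other 16 H2B genes peaked at or below 9.46. Most H2A and H2B genes sit head to head around a shared promoter, and the table gave 11 such pairs with start sites within 1000 bases. The H2A partner had more UMIs in 9 of 11. The widest ratio was that of *HIST2H2AC* to *HIST2H2BE*, with 10531 against 333 UMIs and 236 bases between start sites, followed by *HIST3H2A* over *HIST3H2BB* (4638 against 286). The order was the other way for *HIST1H2AD* with *HIST1H2BF* and *HIST1H2AI* with *HIST1H2BL*. The counts of both these H2A genes are uncertain. *HIST1H2AD* lies within the span of *HIST1H3D* on the same strand. *HIST1H2AI* had only 36.5% of its 50-base stretches to itself within the family. Of the H2A genes above their partner, *HIST1H2AM* and *HIST1H2AJ* were similar, at 32.2% and 33.7%.

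**Figure D3:**
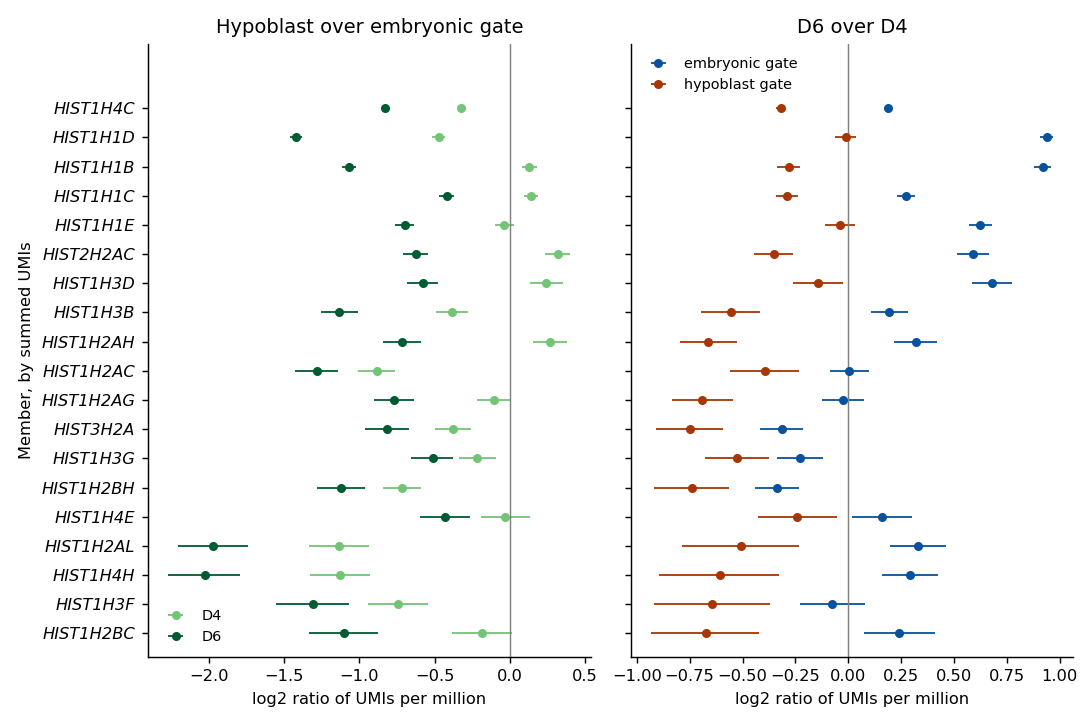
log2 ratio of CPM for the 19 members at 10 CPM or more in at least 1 group, ordered by UMI total. The left panel gives hypoblast over embryonic cells at D4 and D6, the right panel D6 over D4 in each gate, and bars are 95% counting intervals. All 19 lie below 0 for hypoblast over embryonic cells at D6 (57.8% of all genes by any amount), while at D4 they lie on both sides. *HIST1H2AL*, *HIST1H4H*, *HIST1H3F* and *HIST1H2BC* reached 10 CPM in the embryonic gate only, so the choice of members favoured a ratio below 0 for them. The share of all genes carries no such choice by level. D6 over D4 lies above 0 beyond the interval for 13 members in the embryonic gate and for none in the hypoblast gate. Of all genes compared, 62.2% (embryonic) and 48.8% (hypoblast) were higher at D6 by any amount.

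Set beside the whole table, the tilt to embryonic cells was marked at D6. A gene was compared when it had at least 10 UMIs over both groups, and 2-fold is a log2 ratio of 1 or more in size. At D4, 11 of 60 members compared were 2-fold or more lower in hypoblast cells, about the share of all genes (16.1%), and 0 were 2-fold or more higher (15.1% of all genes). By any amount, 53 of the 60 were lower (52.5% of all genes) and 7 higher (47.5%), and the median log2 ratio was −0.46 for members and −0.05 for all genes. At D6, 33 of 60 members were 2-fold or more lower in hypoblast cells, against 21.4% of all genes, and 0 were higher (14.7% of all genes). By any amount 59 of 60 were lower at D6 (57.8% of all genes) and 1 higher (42.2%), and the medians were −1.04 and −0.17. Scaled by the median ratio of genes in place of the total of UMIs, the summed log2 ratio was −0.74 at D6 and −0.21 at D4. The count of 33 depended on scaling: it was 23 of 60 with the median ratio and 48 of 60 without scaling. The share of all genes was not recomputed for these settings. The 33 comprised 4 of 6 H1 genes (*HIST1H1A*, *HIST1H1B*, *HIST1H1D* and *HIST1H1T*), 5 of 16 H2A genes compared, 12 of 16 H2B, 6 of 10 H3 and 6 of 12 H4 genes. *HIST1H1C*, *HIST1H1E* and *HIST1H4C* were lower by less than 2-fold.

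Between days, hardly any member passed 2-fold. In embryonic cells 0 of 60 members were 2-fold or more higher at D6 (4.78% of all genes) and 0 lower (1.93%), and 36 of 60 were higher by any amount, close to the 62.2% of all genes, and 24 lower (37.8%). In hypoblast cells 3 of 55 members, *HIST1H2BE*, *HIST1H2BI* and *HIST1H2BK*, were 2-fold or more lower at D6, near the 5.55% of all genes, and 0 were higher (6.11% of all genes). By any amount 52 of 55 were lower (51.2% of all genes) and 3 higher (48.8%). The median log2 ratio of members was 0.15 in embryonic cells, beside 0.08 for all genes, and −0.54 in hypoblast cells, beside −0.01. The comparisons share groups pairwise, so they are given side by side and not as independent results.

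Histone transcripts followed S-phase genes within each gate and day. Each gated cell was thinned to 3430 UMIs and placed in 4 bins by its UMIs of 38 S-phase genes, none of them a histone gene, with borders common to all groups (at most 5, 9 and 13 UMIs for the lowest, the second and the third bins). From the lowest to the highest bin the histone sum went from 1262 to 2644 CPM in D4 embryonic cells and from 1620 to 3458 in D6 embryonic cells. In hypoblast cells it went from 636 to 3441 at D4 and from 585 to 3871 at D6. The highest bin was thus above the lowest by log2 1.07 and 1.09 in the embryonic gate and by 2.44 and 2.73 in the hypoblast gate.

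The lineage difference depended on the S-phase bin. In the lowest bin, hypoblast cells were below embryonic cells by log2 −0.99 at D4 and −1.47 at D6. In the third and highest bins they were above, by 0.35 and 0.38 at D4 and by 0.14 and 0.16 at D6. The lowest bin held 38.4% [36.9, 39.9] of hypoblast cells at D4 and 65.3% [63.7, 66.9] at D6, against 6.89% and 9.85% of embryonic cells. Averaged over the 4 bins with equal weight, hypoblast over embryonic cells came to −0.10 at D4 and −0.32 at D6. D6 over D4 in embryonic cells stayed between 0.36 and 0.43 in all 4 bins, while in hypoblast cells it was −0.12 in the lowest bin and 0.38, 0.22 and 0.17 in the second, the third and the highest, against −0.31 over all cells of the gate.

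The H1 rise in embryonic cells was present in every S-phase bin. As log2 of D6 over D4 it lay between 0.76 and 0.91 for H1 and between 0.88 and 1.13 for *HIST1H1D*, and between −0.14 and −0.01 for H2B. In hypoblast cells *HIST1H1D* was also higher at D6 within each bin, by 0.37 to 0.78, although its level over all cells of the gate was nearly the same on both days. H1 as a type gave 0.15 to 0.57 in the same bins.

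Against 53 G2M genes, bound to division rather than DNA synthesis, the pattern differed by gate. In embryonic cells histone levels fell from 3020 CPM in the lowest G2M bin to 1165 in the highest at D4, and from 3323 to 1441 at D6, with the D6 second bin slightly above the lowest at 3456. In hypoblast cells the lowest G2M bin was the lowest of the 4, at 623 at D4 and 504 at D6, and the third bin the highest, at 3049 and 3272. As log2 of hypoblast over embryonic cells, the lowest G2M bin thus gave −2.28 at D4 and −2.72 at D6, and the highest gave 0.64 and 0.52. Averaged over the 4 bins it was −0.40 and −0.71, further from 0 than over the S-phase bins. With cells split at the border between the second and the third bins of both gene sets, the group low in both held 60.8% of hypoblast cells at D6 and 38.8% at D4, with histone levels of 572.5 and 659 CPM. The same low-low group held 9.74% and 14.5% of embryonic cells (D4, D6), with levels of 2422 and 2879.

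**Figure D4:**
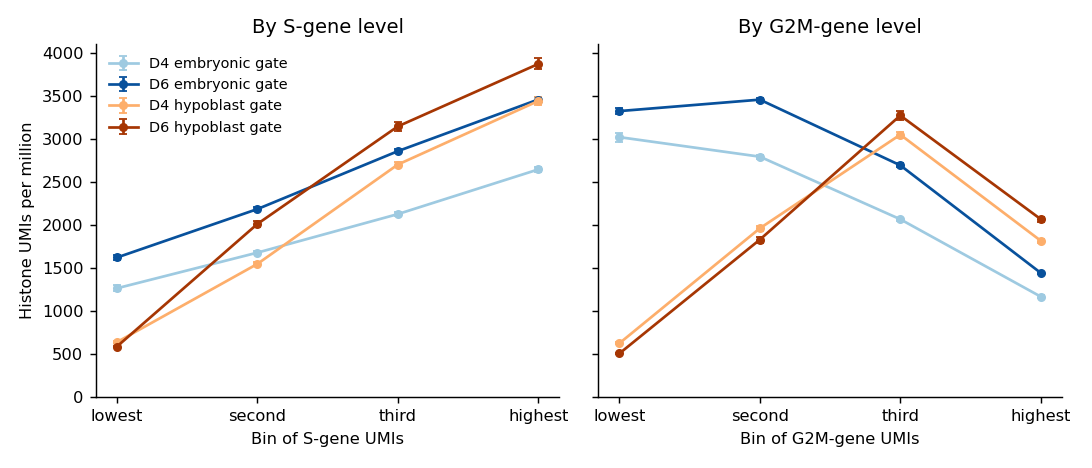
Histone CPM of cells in 4 bins of S-gene UMIs (left) and of G2M-gene UMIs (right), with bin borders common to the 4 groups of gate and day and 95% Poisson intervals. All 4 lines rise with S genes and those of the hypoblast gate rise more steeply, from 636 and 585 to 3441 and 3871; against G2M genes the embryonic lines fall from the second bin on and the hypoblast lines peak in the third.

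Members shared the link to S-phase genes to differing degrees. Of 28 members with at least 1000 UMIs over the 4 groups, 27 were higher in the highest than in the lowest S-phase bin in all 4 groups, against 19.4% of the 10991 genes with as many UMIs (the 38 S-phase genes left out). By 2-fold or more in all 4 groups, 22 of the 28 were higher, against 0.218% of those genes, which is 24 genes with the 22 members among them. As mean log2 ratio over the 4 groups, *HIST1H2BF* (2.60), *HIST1H1B* (2.53), *HIST1H1D* (2.51) and *HIST1H2AL* (2.50) were at the top and *HIST1H4C* was at 1.63. *HIST1H4C* was not among the 22: it was at 0.81 and 0.77 in embryonic cells and at 2.35 and 2.57 in hypoblast cells (D4, D6). The weakest by mean were *HIST1H2BD* at 0.54 and *HIST3H2A* at 0.02. *HIST3H2A* was the 1 exception among the 28, at 0.79 in embryonic cells on both days but at −0.91 and −0.61 in hypoblast cells (D4, D6).

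The 2 weakest members both have a longer annotated transcript. A transcript that runs more than 50 bases past the stem-loop, or lacks it, is annotated for 8 of the 27 members with 1000 UMIs that could be matched, and these had a median mean log2 ratio of 1.66 (range 0.02 to 2.19). The other 19 had a median of 2.20 (range 1.06 to 2.53). The ranges overlap, and which transcript form was captured cannot be read from UMIs per gene.

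**Figure D5:**
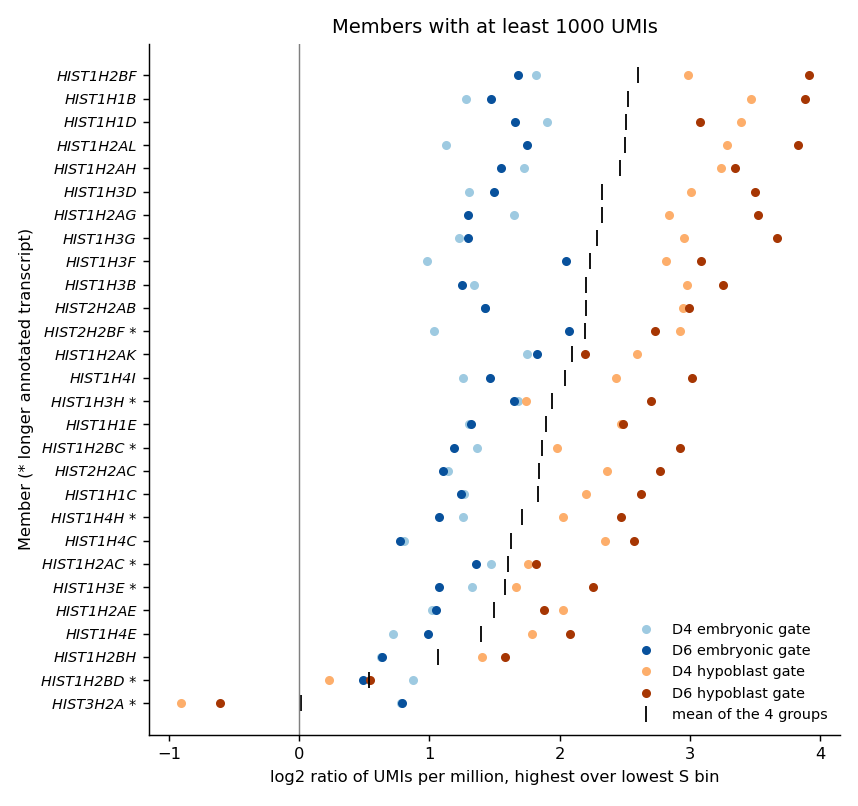
log2 ratio of CPM in the highest over the lowest S-gene bin for the 28 members with at least 1000 UMIs, in each gate and day (dots) and as their mean (black tick); an asterisk marks a member with a longer annotated transcript, and *HIST1H2BF* was not matched to a transcript. Hypoblast dots lie to the right of embryonic dots for most members, and *HIST3H2A* is the one with dots below 0.

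By their levels over the 16 combinations of gate, day and S-phase bin, the most alike pairs among the 19 members were *HIST1H4C* with *HIST1H3B* (Pearson's r of log2 levels 0.992), *HIST2H2AC* with *HIST1H3D* (0.990) and *HIST1H1C* with *HIST2H2AC* (0.988). The least alike pair was *HIST1H3D* with *HIST3H2A*, at −0.34. These values describe 16 points that share 2 libraries and their cells.

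Histone transcripts were spread over cells more evenly in the embryonic than in the hypoblast gate. In cells thinned to 3430 UMIs the median was 6 histone UMIs in embryonic and 3 in hypoblast cells at D4, and 8 and 2 at D6. The 95th percentiles were nearer to each other, at 18 and 19 at D4 and 22 and 20 at D6. The tenth of cells with the most histone UMIs held 26.2% and 24.7% of them in embryonic cells (D4, D6), and 35.0% and 45.1% in hypoblast cells. For H1 alone this share was 37.6% and 32.3% in embryonic and 43.98% and 52.5% in hypoblast cells. Levels also moved with the total UMIs of a cell: in cells of 12000 to 16000 UMIs the sums were 2425 and 2324 CPM at D4 (embryonic, hypoblast) and 3064 and 1751 at D6, and below 8000 UMIs they were 1826 and 1062 at D4 and 2065 and 703 at D6. The levels did not simply rise with depth, since cells of 16000 UMIs or more were back at 1960 and 1616 at D4 and 2536 and 1592 at D6.

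The replacement and other non-clustered histone genes, most of which are transcribed throughout the cell cycle and polyadenylated, did not share the tilt as a sum. The 12 genes of that list summed to 6763 CPM in embryonic and 6611 in hypoblast cells at D4, and to 5992 and 6022 at D6. By any amount, 8 were higher and 4 lower in hypoblast cells at D4, and 7 and 5 at D6 (47.5% and 42.2% of all genes higher). *H3F3A* (H3.3) stood at 2653 and 2064 at D4 and 2302 and 1910 at D6, *H2AFZ* (H2A.Z) at 2111 and 1940 and then 1708 and 1455, and *H3F3B* (H3.3) at 1141 and 1366 and then 1147 and 1496. *H3F3A* and *H2AFZ* were thus lower in hypoblast cells on both days, and *H3F3B* was higher. A total of 3 of 12 were 2-fold or more higher in hypoblast cells on each day, not far from the share of all genes (15.1% at D4, 14.7% at D6), and 0 lower (16.1% and 21.4%). These included *H2AFY2* (macroH2A2), at 35.6 and 201 at D4 and 34.0 and 167 at D6. *H2AFY* (macroH2A1) passed 2-fold at D6, at 96.5 and 293. The linker histone *H1F0* (H1.0), known from cells that leave the cycle, was 2-fold or more higher in hypoblast cells on both days (15.6 and 50.8, then 33.9 and 86.3). In embryonic cells it was also 2-fold or more higher at D6 than at D4 (log2 1.12). The clustered linker genes *HIST1H1D* and *HIST1H1B* came close to that, at 0.94 and 0.92, without passing 2-fold.

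Genes that make, carry or process histones were compared as 2 lists. Of all genes, 15.1% (D4) and 14.7% (D6) were 2-fold or more higher in hypoblast cells, and 16.1% and 21.4% lower. Between days, 4.78% (embryonic) and 6.11% (hypoblast) were 2-fold or more higher at D6, and 1.93% and 5.55% lower. Of 18 factors of histone gene transcription and mRNA processing, 0 passed 2-fold in any of the 4 comparisons. Its most abundant members were *SRRT*, at 97.9 and 79.1 CPM at D4 and 96.5 and 59.0 at D6, *LSM10*, at 89.4 and 73.7 and then 90.4 and 83.6, and the stem-loop binding protein *SLBP*, at 74.9 and 95.9 and then 65.5 and 97.5, each as embryonic and hypoblast level. *SLBP* was thus higher, by less than 2-fold, in the hypoblast gate, where the sum of captured histone transcripts was lower over all cells. In the third and highest S-phase bins that sum was higher in hypoblast cells. A link between the 2 was not tested. Of 16 histone chaperones, 11 were lower by any amount in hypoblast cells at D4 (52.5% of all genes) and 13 at D6 (57.8%). Only 2 of the 16 were 2-fold or more lower at D6, below the 21.4% of all genes, namely *CHAF1A* and *CHAF1B*, subunits of the CAF-1 complex that deposits H3 and H4 at replication. *NASP*, which binds H1 and H3 with H4, was the most abundant at 1325 and 902 at D4 and 1243 and 671 at D6, followed by *NAP1L1* at 1109 and 696 and then 1158 and 626, and by the FACT subunit *SUPT16H* at 388 and 283 and then 403 and 216. *ASF1A* went the other way, at 47.1 and 86.4 at D4 and 38.5 and 109 at D6.

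The sums of the S-phase and G2M lists were, like the histone sum, lower in hypoblast than in embryonic cells on both days, but lower at D6 in both gates. The 38 S-phase genes summed to 3329 CPM in embryonic and 2413 in hypoblast cells at D4, and to 3105 and 1661 at D6. At D6, 16 of 38 were 2-fold or more lower in hypoblast cells (21.4% of all genes), among them *HELLS* (371 and 126) and *MCM4* (194 and 58.9), a subunit of the replicative helicase. The 53 G2M genes were nearer to each other, summing to 6849 and 6671 at D4 and 6678 and 5273 at D6. Gene by gene, 27 of the 53 were higher in hypoblast cells at D4 (47.5% of all genes) and 12 at D6 (42.2%). In embryonic cells 29 of the 53 were higher at D6 than at D4 (62.2% of all genes), so not every gene followed the sum. From D4 to D6 in embryonic cells the S-phase sum was lower (log2 −0.10) while the histone sum was higher (0.34). The part of these genes in the histone values was not tested beyond the bins above.

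Members from the 4 clusters differed in weight. All 71 members matched a RefSeq gene, 65 by identifier and 6 by synonym. The HIST1 cluster on chromosome 6 (55 genes, chr6:25726063-27893891) gave 441404 of the histone UMIs, against 15121 for the 12 HIST2 genes, 4929 for the 3 HIST3 genes and 895 for *HIST4H4* on chromosome 12. The 34 HIST1 genes on the low-coordinate side of the largest gap gave 380898 and the 21 beyond it 60506. HIST2 genes as a sum were higher in hypoblast cells at D4, at 65.2 against 61.0 CPM, and lower at D6, at 51.2 against 84.7. Most of the D4 sums was *HIST2H2AC*, with 2320 of 3120 UMIs in hypoblast and 2247 of 3525 in embryonic cells. *HIST2H2BF*, the next HIST2 gene by UMIs, was lower in hypoblast cells at D4 (log2 −0.66 [−0.90, −0.41]). *HIST4H4* was lower in hypoblast cells on both days (log2 −1.31 and −1.60). A total of 10 members had fewer than 50% of their 50-base stretches to themselves within the family, among them *HIST1H2AM*, *HIST1H2AJ* and *HIST1H4J*, and *HIST2H4A* and *HIST2H4B* were nearly identical, so their separate counts are uncertain. *HIST1H4I* lies within the annotated span of *HIST1H2BK* on the opposite strand, so their counts are separate only where strand was used.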

How the data were processed

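Single-cell RNA of 2 libraries (D4 and D6) was analysed; 7 bisulfite samples were not used here. The authors made the deposited UMI counts per gene and cell with Cell Ranger (hg38) from libraries of a 3′ Chromium kit that captures polyA RNA; the submitters' processing notes also name Seurat 4.0.1 and R 4.0.3. The libraries held 10943 and 11483 cells with 151712246 and 150320228 UMIs. Cells with 3430 to 27500 UMIs and at most 10% mitochondrial UMIs were kept (9151 and 10097).

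UMIs were summed per gate and day and given in 1000000 UMIs of the same cells (CPM). Intervals are exact Poisson for levels, exact binomial for shares, and exact conditional binomial for ratios. Genes with at least 10 UMIs over both groups were compared, with 0.5 counts added for the calls and medians over lists. The floor for a group at 0 was 3 UMIs. No doublet caller was run. The gates limit but do not exclude RNA of the other lineage, since they allow 2 UMIs of *FN1* in embryonic and 5 of *POU5F1* in hypoblast cells. A limit of 20000 UMIs was tried. Cells were thinned to 3430 UMIs (seed 7) for bins and spread. Scripts were tested on simulated data. Stem-loops and A counts were read from GENCODE 44 transcripts, which gave 65 of 71 members, and promoters (66 of 71) and coordinates from RefSeq GRCh38.p14. Python 3.11.15, numpy 2.4.6, scipy 1.17.1 and pandas 2.3.3 were used.

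Members at 10 CPM or more in at least 1 group were described singly; of the other lists, the 3 most abundant genes and those at 100 or more past 2-fold could be named. Other genes named were chosen after their values were seen. The members and lists were chosen with earlier results of these data known.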

Additional observations from a re-analysis of the deposited data

Results flagged for a closer look

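The log2 ratio of D6 over D4 lay above 0 in embryonic cells and below 0 in hypoblast cells, beyond counting error, for several sums and members; with 1 library per day the difference between gates was not tested. For the sum of clustered histone genes the ratios were 0.34 (embryonic) and −0.31 (hypoblast). By type they were 0.75 and −0.16 for H1, 0.19 and −0.51 for H2A, 0.20 and −0.42 for H3, and 0.19 and −0.32 for H4, whereas H2B was below 0 in both gates.

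Of the 19 members described singly, 11 showed opposite signs. Of all genes compared, 62.2% were higher at D6 in embryonic cells and 51.2% lower at D6 in hypoblast cells, by any amount. The share of all genes with both, beyond counting error, was not computed. For *HIST1H4C* the ratios were 0.19 (embryonic) and −0.32 (hypoblast). Among H1 genes they were 0.92 and −0.28 for *HIST1H1B* and 0.27 and −0.29 for *HIST1H1C*. Among H2A genes they were 0.59 and −0.35 for *HIST2H2AC*, 0.32 and −0.66 for *HIST1H2AH*, and 0.33 and −0.51 for *HIST1H2AL*. For H3 genes they were 0.68 and −0.14 for *HIST1H3D* and 0.19 and −0.56 for *HIST1H3B*. The H4 genes *HIST1H4E* and *HIST1H4H* gave 0.16 and −0.24, and 0.29 and −0.61. The H2B gene *HIST1H2BC* gave 0.24 and −0.67. It reached 10 CPM in D6 embryonic cells only, so its place among the 19 favoured a ratio above 0 in that gate.

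Histone transcripts were also present in cells that no comparison used. Kept cells in neither gate had 1843 histone CPM at D4 and 2158 at D6. Cells over the upper UMI limit had 1668 and 1948, those under the lower limit 878 and 956, and those over the mitochondrial limit 787 and 646. The last 4 values are below those of every gated group.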

How the results depend on the processing

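No paired analysis was possible because each day is 1 library, and no result comes from a test. Ratios are log2 in the order hypoblast over embryonic at D4 and at D6, then D6 over D4 in embryonic and in hypoblast cells, and levels are histone CPM in the order embryonic and hypoblast at D4, then at D6; values within the counting interval are left out. The sign of a ratio turned only within strata of S-phase and G2M genes. In S-phase bins it turned for hypoblast over embryonic cells in the third and highest S-phase bins (0.35 and 0.38 at D4, 0.14 and 0.16 at D6), and D6 over D4 in hypoblast cells in the second to highest bins (0.38, 0.22 and 0.17), as the mean over bins (0.16) and over quadrants of S and G2M genes (0.068). In G2M bins it turned for hypoblast over embryonic cells in the third and the highest (0.56 and 0.64 at D4, 0.28 and 0.52 at D6) and for D6 over D4 in hypoblast cells in the same bins (0.10 and 0.19). The cause was not tested. The other values in S-phase bins were −0.99 (lowest bin), −0.12 (second) and −0.10 (mean) at D4, −1.47, −0.12 and −0.32 at D6, 0.36, 0.38, 0.43 and 0.39 with a mean of 0.39 for embryonic D6 over D4, and −0.12 in the lowest bin for hypoblast cells. G2M bins gave −2.28 (lowest), −0.51 (second) and −0.40 (mean) at D4, −2.72 (lowest) and −0.71 (mean) at D6, 0.14, 0.31, 0.38 and 0.31 with a mean of 0.28 for embryonic D6 over D4, and −0.10 (second) and −0.029 (mean) for hypoblast D6 over D4. The quadrants gave −0.28, −0.54 and 0.32 for the other 3 ratios. Bins of total UMIs gave −0.34, −0.96, 0.27 and −0.34. Quadrants, G2M bins and bins of total UMIs were added after the data were seen.

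Looser gates gave an embryonic level of 2639 at D6 and ratios of −0.89 (hypoblast over embryonic, D6) and −0.29 (hypoblast, D6 over D4). Stricter gates gave levels of 2121 and 1855 at D4 and ratios of −0.19 at D4, 0.32 and −0.39. Without a filter on cells the levels were 2048 and 1736 at D4 and 2631 in D6 embryonic cells, and the ratios −0.24 at D4 and 0.36 in embryonic cells. At most 20000 UMIs per cell gave 2302 (embryonic, D4), 2834 and 1396 (D6), with ratios of −0.40, −1.02 and 0.30. Thinned cells gave 2129, 1670 and, in D6 hypoblast cells, 1297, with ratios of −0.35, −1.04, 0.32 and −0.36. Gates set on thinned cells gave 2113, 1658, 2578 and 1328, with −0.35, −0.96 and 0.29. Means over cells gave 2122, 1664 and, in D6 hypoblast cells, 1313, with −0.35, −1.01, 0.32 and −0.34. Median-ratio scaling gave 2064, 1781, 2478 and 1469, with −0.21, −0.74 and 0.26. Without scaling there were 32.5, 20.6, 39.3 and 16.5 histone UMIs per cell, with −0.66, −1.25 and 0.27. Totals without mitochondrial and ribosomal protein genes gave 2899, 2298, 3714 and 1765, with −0.34, −1.07, 0.36 and −0.38. Without *HIST1H4C* the ratios were −0.19, −0.99 and 0.50.

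Of the counts of members past 2-fold, 84 of 96 recomputed values stayed within 1.5 times. This includes counts of 0 that stayed at 0, and the change from 33 to 23 with median-ratio scaling (lower in hypoblast cells, D6). Those lower in hypoblast cells at D4 (11) became 7 with stricter gates, 7 with thinned cells, 23 without scaling and 5 with at least 100 UMIs. Those lower at D6 in hypoblast cells (3) became 7 with stricter gates, 6 with thinned cells, 5 without mitochondrial and ribosomal genes in the totals and 8 with no minimum of UMIs. With no minimum, the counts of 0 became 2 (higher in hypoblast cells, D4), 3 and 3 (higher and lower at D6, embryonic) and 2 (higher at D6, hypoblast). Bins on the S-gene share of unthinned cells gave highest over lowest ratios of 1.46, 2.90, 1.70 and 2.93 in the order of the levels. Members with few UMIs are limited by depth: 19 stayed under 1 CPM.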
